A study of Mus musculus with 7 samples.

Results

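Matricellular proteins are secreted into the extracellular matrix and mainly signal to cells through integrins and other receptors, whereas fibronectin, fibrillin and elastin form the fibres themselves. In skeletal muscle they are made largely by fibroblasts and tendon cells of the connective tissue around fibres, and tenascin-C is known for its response to mechanical load. The genes followed here were Postn (periostin), Tnc (tenascin-C), Sparc (osteonectin), Thbs1 and Thbs2 (thrombospondins), Fn1 (fibronectin), Fbn1 (fibrillin-1) and Eln (elastin). Members were the array rows whose single platform gene symbol equalled one of these 8 names, and the row of highest mean log2 intensity was to stand for a gene with several. Of the 8 genes, 7 were found, with 1 row each, among 19938 genes with a single symbol. No row bore the single symbol Fbn1, which was not analysed here. The label fits Postn, Tnc, Sparc, Thbs1 and Thbs2, while Fn1 and Eln code for structural matrix proteins.

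The muscle was the left plantaris of male C57BL/6J mice aged 5 months. All animals had spent 2 weeks in hind limb suspension, which takes the load off the muscle, so no group here is an unsuspended muscle. The control of the labels, d0, is muscle from the last day of suspension, and the other groups are d1, d3, d5, d7, d10 and d14 of regrowth. Each time point is a single array (Affymetrix Mouse Gene 1.0 ST) that carried the pooled RNA of 6 animals, which makes 7 arrays. With 1 array a day there is no replicate error, so differences between days are given without a p-value and their precision is limited by the small number of arrays.

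Values are the deposited normalized intensities on a linear scale, and ratios are log2 ratios to d0 unless stated otherwise. Array medians lay between 128.1 and 131.8, and 12102 genes reached the median of an array at least once, including all 7 members, each of which was above the median on all 7 arrays. The median ratio of these genes to d0 lay between 0.05 on d5 and 0.10 on d1, so the median gene lay slightly above d0 throughout. In 53.7% of all rows at least 2 arrays held the same value to the last digit, and Thbs2 and Sparc were such rows. All 12 skeletal muscle fibre markers passed the filter, and their summed intensity was between 151734 and 159770 on the 7 arrays. Single markers were less even than the sum. On d1 11 of the 12 were below d0, on d3 10 and on d14 7, where 70.9%, 65.5% and 71.3% of the 12102 genes were above it. Myh2 went the other way, with 5597.6 on d0 and 11865 on d3. Muscle contains several cell types, and fewer cells of a type and less RNA per cell cannot be told apart in such samples.

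The stretches before the start sites of the genes at the extremes, Postn, Tnc and Thbs2, are shown because the first pair had the highest ratios on d3 and Thbs2 was nearly level. They come from RefSeq on GRCm38.p6, whose table held 5 of the 8 genes, and each runs 5′ to 3′ over the 250 bases before a start site. Some short sequences were searched on both strands, namely TATAAA (the TATA box), TGANTCA (the AP-1 element), GGAATG (the TEAD element) and the CArG box of serum response factor. Capitals mark the matches.
Postn, chr3:54359017-54359266, plus strand: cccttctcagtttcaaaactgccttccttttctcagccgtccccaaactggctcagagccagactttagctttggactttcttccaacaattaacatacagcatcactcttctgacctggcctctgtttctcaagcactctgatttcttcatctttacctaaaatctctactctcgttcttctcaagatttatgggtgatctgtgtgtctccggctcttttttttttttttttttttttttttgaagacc
Postn, chr3:54360857-54361106, plus strand: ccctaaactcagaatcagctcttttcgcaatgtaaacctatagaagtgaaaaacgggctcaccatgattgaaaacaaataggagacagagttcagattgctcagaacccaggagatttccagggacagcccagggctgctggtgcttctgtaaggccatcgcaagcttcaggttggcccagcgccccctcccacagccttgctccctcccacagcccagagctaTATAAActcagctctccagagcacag
Tnc, chr4:64047016-64047265, minus strand: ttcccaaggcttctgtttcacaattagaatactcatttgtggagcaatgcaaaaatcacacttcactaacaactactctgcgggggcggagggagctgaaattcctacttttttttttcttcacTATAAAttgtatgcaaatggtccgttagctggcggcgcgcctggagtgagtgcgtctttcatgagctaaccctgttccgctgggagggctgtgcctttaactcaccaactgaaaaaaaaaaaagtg
Thbs2, chr17:14694263-14694512, minus strand: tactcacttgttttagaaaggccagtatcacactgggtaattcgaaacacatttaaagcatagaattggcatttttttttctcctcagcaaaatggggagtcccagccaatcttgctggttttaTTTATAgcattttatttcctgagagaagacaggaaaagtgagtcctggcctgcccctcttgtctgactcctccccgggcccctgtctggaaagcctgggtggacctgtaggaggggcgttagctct
TATAAA was the only one of these sequences with a match in the 4 stretches, so no matches overlapped. It lay 26 to 21 bases before the downstream start site of Postn, 126 to 121 bases before the start site shown for Tnc and, on the opposite strand, 126 to 121 bases before that of Thbs2. Of 32851 stretches of the same length, 12.4% held TATAAA, 6.75% TGANTCA, 12.6% GGAATG and 1.47% a CArG box. These matches are descriptions of the letters. The upstream stretch of Postn held none, and the downstream one and those shown for Tnc and Thbs2 held 1 each. The stretches of Sparc and Fbn1, which are not shown, held none.

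Postn codes for periostin, a protein that binds collagen and integrins and marks active connective tissue remodelling. Its intensity was 291.5 on d0, 832.7 on d1, 1589.8 on d3, 1215.6 on d5, 620.2 on d7, 957.3 on d10 and 617.2 on d14. All 6 later days lay above d0, with the highest value on d3 and a second, lower maximum on d10. The ratio to d0 was 1.51 on d1, 2.45 on d3 (5.45-fold), 2.06 on d5, 1.09 on d7, 1.72 on d10 and 1.08 on d14. Ranked from the highest ratio among the 12102 genes, Postn stood in place 33 on d1, place 2 on d3, place 2 on d5, place 8 on d7, place 16 on d10 and place 5 on d14. Set against d14, Postn was 2.58-fold higher on d3 and 1.97-fold higher on d5, and the d7 and d14 arrays differed by 0.01 on the log2 scale.

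Tnc codes for tenascin-C, a large multimeric glycoprotein that loosens the adhesion of cells to fibronectin. Its intensity was 176.1 on d0, 274.8 on d1, 379.0 on d3, 275.7 on d5, 221.2 on d7, 294.3 on d10 and 226.3 on d14. The order of highs and lows was like that of Postn, with a maximum on d3, a low on d7 and a higher value again on d10. The ratio to d0 was 0.64 on d1, 1.11 on d3 (2.15-fold), 0.65 on d5, 0.33 on d7, 0.74 on d10 and 0.36 on d14. Tnc stood in place 35 of 12102 on d3 and in place 1435 on d7. Against d14 it was 1.67-fold higher on d3 and 1.30-fold higher on d10.

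Sparc codes for a collagen-binding glycoprotein that takes part in the assembly of collagen fibrils. Its intensity was 5036.5 on d0, 6574.7 on d1, 7288.5 on d3, 7288.5 on d5, 7609.0 on d7, 8077.0 on d10 and 7374.3 on d14. Sparc was higher on all 6 later days than on d0 and showed no dip on d7. The ratio to d0 was 0.38 on d1, 0.53 on d3 and d5, 0.60 on d7, 0.68 on d10 and 0.55 on d14. From d3 on, each day lay between -0.02 and 0.13 of d14, whereas d0 was lower than d14 by a log2 difference of -0.55. Among the 12102 genes it stood in place 1283 on d1, 278 on d3, 231 on d5, 196 on d7, 163 on d10 and 116 on d14.

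Thbs1 codes for thrombospondin-1, which binds CD36 and CD47 and can activate latent TGF-beta. Its intensity was 697.5 on d0, 1057.3 on d1, 936.9 on d3, 784.6 on d5, 737.4 on d7, 788.0 on d10 and 778.1 on d14. Unlike the other members it was highest on d1, and d5 to d14 lay close together. The ratio to d0 was 0.60 on d1 (1.52-fold), 0.43 on d3, 0.17 on d5, 0.08 on d7, 0.18 on d10 and 0.16 on d14. Against d14 the d1 value was 1.36-fold higher. Platelets are another source of Thbs1 RNA. Of the 9 platelet and megakaryocyte markers listed, 6 were on the array and 5 passed the filter. The summed intensity of the 6 was 2607.3 on d0, 3315.6 on d1, 4325.2 on d3, 2677.4 on d5, 3681.5 on d7, 3744.8 on d10 and 3483.8 on d14, so it was highest on d3 and not on d1. Ppbp accounted for most of it, with 1473.7 on d0, 2051.4 on d1, 2943.9 on d3 and 1490.6 on d5. The part of platelets in the Thbs1 values was not tested.

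Thbs2 codes for thrombospondin-2, a relative of Thbs1 made by fibroblasts. Its intensity was 551.9 on d0, d1 and d3, 533.1 on d5, 509.7 on d7, 587.6 on d10 and 553.0 on d14. The lowest and highest arrays differed 1.15-fold, the smallest span of the 7 genes. Its ratio to d0 lay between -0.11 on d7 and 0.09 on d10. The 3 identical values are as deposited.

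Fn1 codes for fibronectin, the adhesive glycoprotein that integrin alpha5 beta1 assembles into fibrils. Its intensity was 1145.8 on d0, 1452.6 on d1, 1975.8 on d3, 1839.8 on d5, 1826.9 on d7, 2558.4 on d10 and 1698.7 on d14. All later days were above d0, and d10 stood above every other array. The ratio to d0 was 0.34 on d1, 0.79 on d3, 0.68 on d5, 0.67 on d7, 1.16 on d10 (2.23-fold) and 0.57 on d14. Against d14 Fn1 was 1.51-fold higher on d10, d3, d5 and d7 were between 1.08-fold and 1.16-fold higher, and d1 was lower by a log2 difference of -0.23.

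Neutrophil markers were high on the d10 array as well. Of the 13 neutrophil markers, all 13 were on the array and 12 passed the filter. On d10 11 of these 12 were at least 2-fold above d0, against 0.438% of all kept genes. On d3, the day of the Postn and Tnc maxima, 5 were (background 0.413%). On d1 and d7 4 were (0.653% and 0.19%), and on d5 and d14 0 were (0.182% and 0.0661%). A gene could pass the filter through the d10 array alone. The summed intensity of the 13 was 1856.5 on d0, 3493.2 on d1, 4618.4 on d3, 2405.4 on d5, 3099.2 on d7, 10021.3 on d10 and 2206.0 on d14. The bone sialoprotein gene Ibsp had an intensity of 314.1 on d10 and between 45.1 and 76.0 on the other 6 arrays. Of the 10 bone-forming cell markers, 6 were on the array and 3 passed the filter, and the sum of the 6 was 1198.8 on d0, 1282.5 on d1, 1766.7 on d3, 1946.0 on d5, 2045.6 on d7, 2641.3 on d10 and 2076.1 on d14. Col1a1, which fibroblasts also make, accounted for 662.0 of this sum on d0 and 1662.9 on d10. The part of such cells in the values of Fn1, Postn and Tnc, on d10, d3 or any other day, was not tested.

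Eln codes for elastin, the core protein of elastic fibres. Its intensity was 210.1 on d0, 227.9 on d1, 245.9 on d3, 229.5 on d5, 272.1 on d7, 221.4 on d10 and 223.9 on d14. Eln was highest on d7, a day on which Postn and Tnc were below their d5 and d10 values, and lowest on d0. The ratio to d0 was 0.37 on d7 and between 0.08 and 0.23 on the other 5 days, close to the median gene on d1 and d14.

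**Figure D1:**
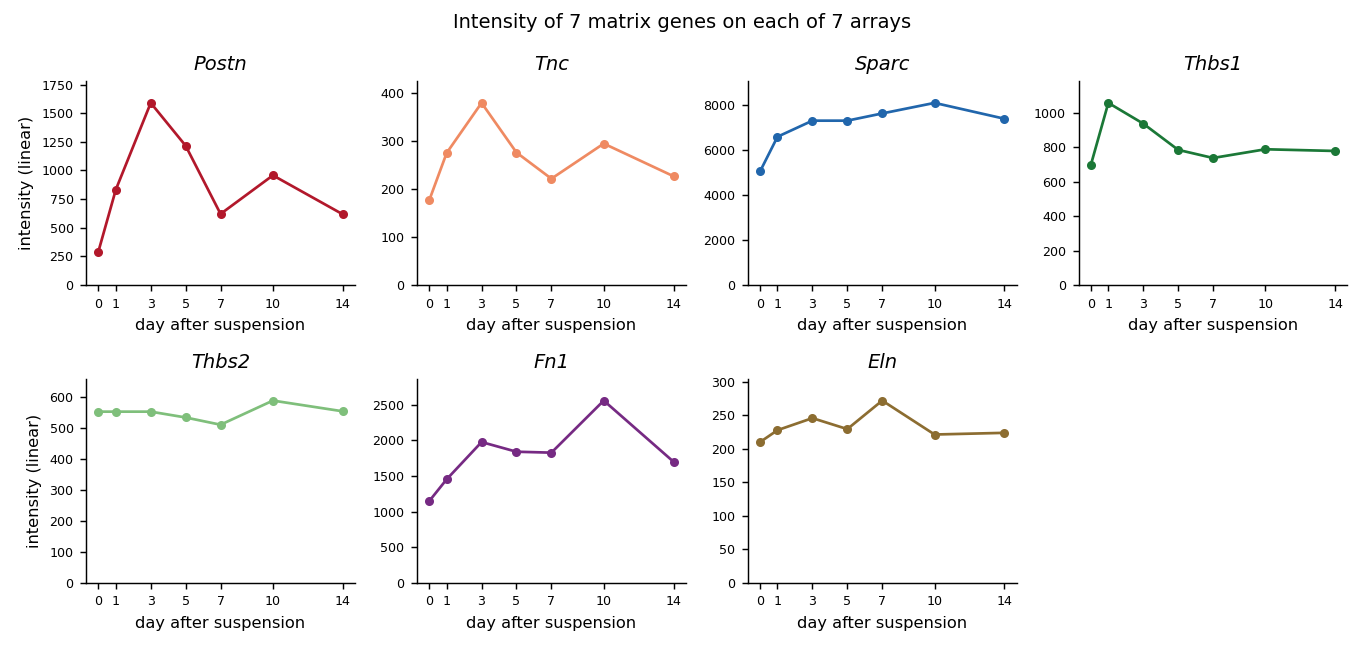
Deposited intensity on a linear axis starting at 0 (vertical) against day after suspension (horizontal) for each of the 7 genes, with 1 point per array of pooled RNA and no error bars. Postn and Tnc peak on d3 (1589.8 and 379.0), Fn1 and Sparc on d10 (2558.4 and 8077.0), Thbs1 on d1 (1057.3) and Eln on d7 (272.1).

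Counted over the 7 genes, Postn was at least 2-fold above d0 on all 6 days, Tnc on d3 and Fn1 on d10, and none was 2-fold lower on any day (background 0.372% on d1, 0.281% on d3, 0.314% on d5, 0.289% on d7, 0.355% on d10 and 0.322% on d14). This gives 1 gene on d1, where 0.653% of the 12102 genes were at least 2-fold higher, 2 genes on d3 (background 0.413%) and 1 on d5 (0.182%). It gives 1 gene on d7 (0.19%), 2 on d10 (0.438%) and 1 on d14 (0.0661%). By any amount, 6 genes were above d0 on d1, d3, d5 and d7 (background 70.9%, 65.5%, 61.1% and 66.0%) and 7 on d10 and d14 (72.2% and 71.3%). The median ratio of the 7 genes was 0.38 on d1, 0.53 on d3, 0.53 on d5, 0.37 on d7, 0.68 on d10 and 0.36 on d14, against 0.10, 0.07, 0.05, 0.08, 0.10 and 0.08 over all kept genes on the same days. Set against d14 in place of d0 the medians were 0.03 on d1, 0.22 on d3, 0.04 on d5, 0.01 on d7 and 0.13 on d10. Only Postn on d3 was then 2-fold higher (background 0.198%). On the other days 0 of the 7 were, where the background was 0.388% on d1, 0.0496% on d5, 0.00826% on d7 and 0.24% on d10.

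Other thresholds gave other counts. At 1.5-fold above d0 there were 3 of the 7 genes on d1 (background 3.45%), d3 (1.65%), d5 (1.36%) and d7 (1.74%), 4 on d10 (2.28%) and 1 on d14 (0.678%). At 3-fold there was 1, Postn, on d3 (0.0909%), d5 (0.0413%) and d10 (0.19%), and 0 on d1 (0.207%), d7 (0.0248%) and d14 (0.0%). Set against the mean of the 6 other arrays, Postn alone was 2-fold higher, on d3 (0.0661%), and 0 genes were 2-fold higher on d1 (0.306%), d5 (0.00826%), d7 (0.0165%), d10 (0.182%) and d14 (0.0%).

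The d0 array was the lowest of the 7 for 6 of the 7 genes, all but Thbs2, against 39.0% of all kept genes. All 6 comparisons share that array. A fault of the d0 array and low expression in suspended muscle cannot be told apart for the step between d0 and the later days. Differences among the later days do not involve d0. Postn was higher on d3 than on d1 by 0.93 and lower on d7 than on d5 by a log2 difference of -0.97, and it was higher on d10 than on d7 by 0.63. Tnc differed in the same direction over these steps, by 0.46, -0.32 and 0.41. The robust SD of the difference over all 12102 genes was 0.137, 0.124 and 0.140 for the same pairs, which describes these arrays and is not an error between animals. The d3 value lay above both d1 and d5 for 4 of the 7 genes (23.4% of kept genes), and the d10 value above both d7 and d14 for 6 of them (43.6%). A value on d3 above both d1 and d5 together with a value on d10 above both d7 and d14 was found for Postn, Tnc and Fn1, 3 of the 7 genes, and for 6.45% of kept genes.

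**Figure D2:**
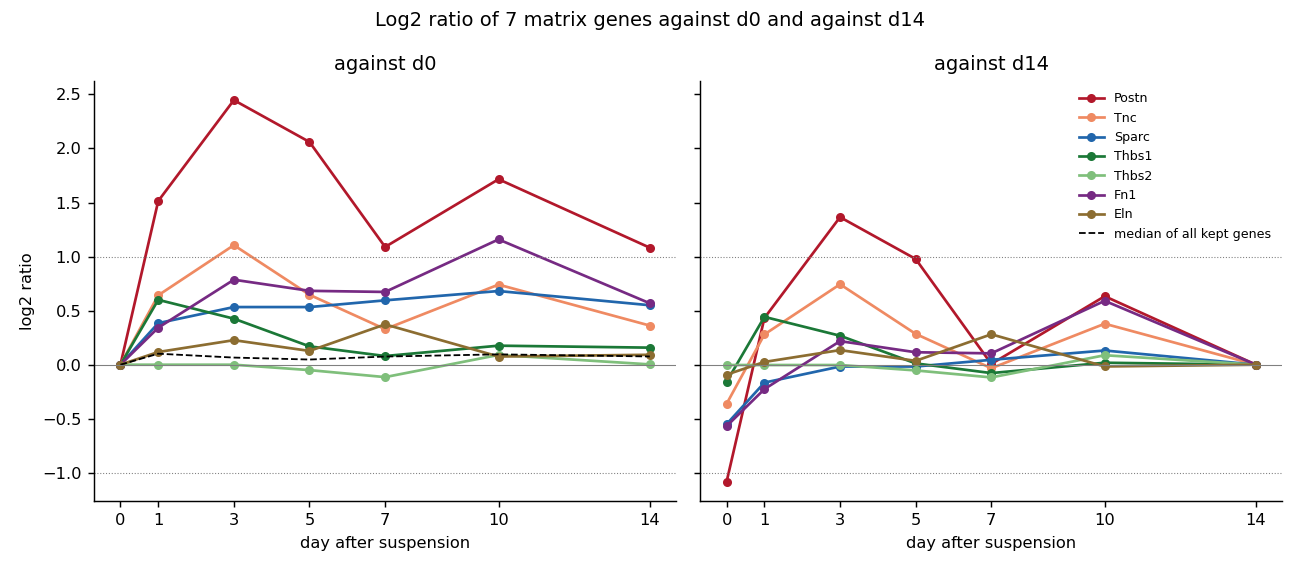
Log2 ratio of the 7 genes against d0 (left) and against d14 (right) by day, with dotted lines at 2-fold and the dashed line giving the median of all kept genes. Against d0 the line of Postn lies highest on every later day and reaches 2.45 on d3, and against d14 the d10 values of Postn, Tnc and Fn1 are 0.63, 0.38 and 0.59, for Fn1 its highest.

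A straight trend over time was tested with limma, as the slope of log2 intensity on log2(day + 1) over the 7 arrays, with p-values adjusted over all 12102 genes. None of the 7 genes passed an adjusted p of 0.05, and 0 of the 12102 genes did, although slopes at an unadjusted p under 0.05 were positive in 9.19% of genes and negative in 1.45%. Sparc had a slope of 0.14 per doubling of day + 1 (SE 0.03, limma adjusted p = 0.294). Fn1 had one of 0.20 (SE 0.06, limma adjusted p = 0.352), and these were the 2 members with an unadjusted p under 0.05. The courses of Postn (slope 0.22, 95% interval -0.22 to 0.66) and Tnc (0.07, -0.14 to 0.27) are not straight, and their slopes had wide intervals.

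Without d0 the limma slope of Thbs1 was -0.17 (SE 0.04, limma adjusted p = 0.168), against -0.03 with all 7 arrays. That fit called 19 genes that rose (0.157%) and 24 that fell (0.198%), none of them a member. At an unadjusted p under 0.05 it held 1 member with a positive slope (Sparc, background 6.88%) and 1 with a negative slope (Thbs1, background 6.39%). In it the slopes of Postn and Tnc were -0.21 and -0.12, both with intervals that span 0, and Sparc kept a positive slope of 0.07 (limma adjusted p = 0.294).

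**Figure D3:**
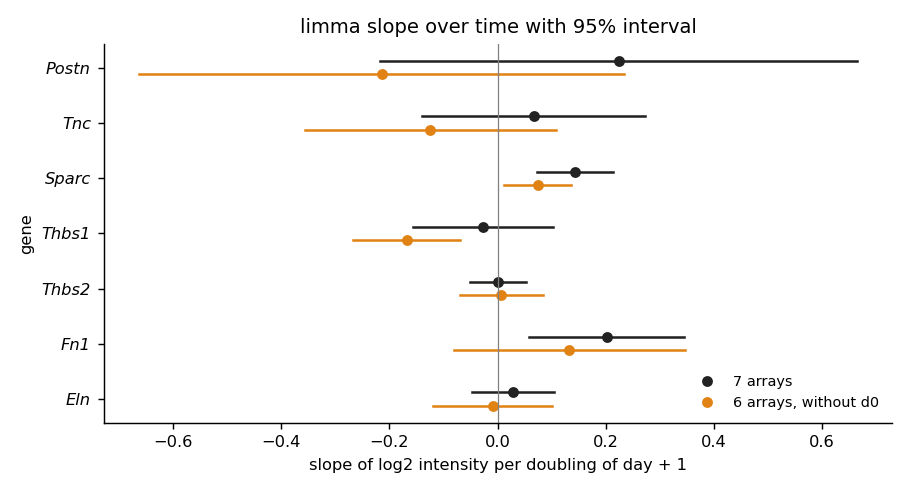
Slope of log2 intensity per doubling of day + 1 (horizontal) for each gene, with dots for the limma estimate and lines for its 95% interval, fitted to all 7 arrays (black) and to 6 arrays without d0 (orange). The intervals of Sparc lie above 0 in both fits, that of Fn1 only with 7 arrays, and Postn has a slope of 0.22 with 7 arrays and -0.21 without d0.

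Genes that work with these proteins were followed as lists. Among 28 other matricellular and small leucine-rich matrix genes, 27 were on the array and 21 passed the filter. Of these, 1 was at least 2-fold higher on any day, Ibsp on d10 (ratio 2.80), where 0.438% of all kept genes were. Ibsp passed the filter through the d10 array alone. Their median lay between 0.07 on d1 and 0.22 on d10. The small proteoglycans Bgn (biglycan) and Lum (lumican), which bind collagen fibrils, came next, with Bgn at 0.57, 0.99, 0.87, 0.61, 0.69 and 0.45 from d1 to d14 and Lum at 0.62, 0.78, 0.98, 0.40, 0.76 and 0.39. Comp, a thrombospondin of cartilage and tendon, stood at 0.64 on d10 and between 0.11 and 0.27 on the other days.

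Fbn1, with no row of its own here, works beside the elastic fibre and microfibril genes. Of the 24 listed, 21 were on the array and 20 passed the filter, and none was 2-fold higher or lower on any day. Their median was 0.17 on d1, 0.24 on d3, 0.19 on d5, 0.27 on d7 (the day of the Eln maximum), 0.22 on d10 and 0.21 on d14. On d7 19 of 20 were above d0, against 66.0% of all kept genes, and 19 also were on d5, d10 and d14 (background 61.1%, 72.2% and 71.3%). On d1 15 were (70.9%) and on d3 18 (65.5%). Mfap5, a microfibril glycoprotein, stood at 0.47 on d7 and highest on d5 (0.73). The latent TGF-beta binding protein gene Ltbp4 stood at 0.44, the elastin crosslinking enzyme gene Loxl1 at 0.42 and Adamtsl2, whose product binds fibrillin, at 0.41. Against d14 the d7 median was 0.07.

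Fibrillar and associated collagens had medians of 0.16 on d1, 0.33 on d3, 0.46 on d5, 0.38 on d7, 0.45 on d10 and 0.29 on d14, so d5 and d10 were nearly level. Against d14 the median was 0.06 on d5 and 0.10 on d10. On d3, d5 and d7 14 of 14 were above d0, against 65.5%, 61.1% and 66.0% of all kept genes. At least 2-fold higher were Col8a1 on d3 (background 0.413%) and Col1a1 on d5 (0.182%), d7 (0.19%) and d14 (0.0661%). On d10 2 were, Col1a1 and Col1a2 (0.438%), and on d1 0 were (0.653%). Col1a1, a chain of type I collagen, was highest later than Postn, with intensities of 662.0, 720.8, 1111.1, 1335.3, 1391.6, 1662.9 and 1401.3 from d0 to d14. Col8a1, a short-chain collagen of vessels and repairing tissue, was earlier, with 191.4, 296.9, 406.9, 357.3, 251.9, 244.9 and 201.3 over the same days. Col1a1 was thus highest on d10, as Fn1 and Sparc were, and Col8a1 on d3, as Postn and Tnc were. Col3a1 and Col6a2 had ratios of 0.83 and 0.77 on d5.

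Receptors had medians between 0.08 on d14 and 0.18 on d10, and none of the 25 genes that passed the filter was 2-fold higher or lower on any day. Itga5, the fibronectin receptor subunit, had intensities of 218.1 on d0, 424.6 on d1, 399.7 on d3, 332.5 on d5, 327.6 on d7, 334.9 on d10 and 297.9 on d14. It was highest on d1, at a ratio of 0.96, before the maximum of Fn1. The laminin receptor subunit gene Itga6 stood at 0.76 on d1 and 0.67 on d10. Itgav, a subunit of receptors for many matrix ligands, stood at 0.47 and Itgb8 at -0.48 on d10. TGF-beta ligands, receptors and targets had medians of 0.17 on d1 and 0.14 on d10, and 14 of 16 were above d0 on each of these days, against 70.9% and 72.2% of all kept genes. On d5 the median was 0.02, below the 0.05 of all kept genes, and 8 of 16 were above d0 (background 61.1%). On d3 10 were (65.5%), on d7 11 (66.0%) and on d14 12 (71.3%), with medians of 0.08, 0.10 and 0.09. After quantile normalization the medians were 0.09 on d1, 0.10 on d7 and 0.06 on d10, and against d14 they were 0.04 on d1 and 0.05 on d10, so the day of the highest median was not settled. Tgfb2 stood at 0.47, Tgfbr1 at 0.38, Tgfb1 at 0.36 and the repressor gene Tgif1 at 0.31 on d1, and none of the 16 was 2-fold higher or lower on any day.

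**Figure D4:**
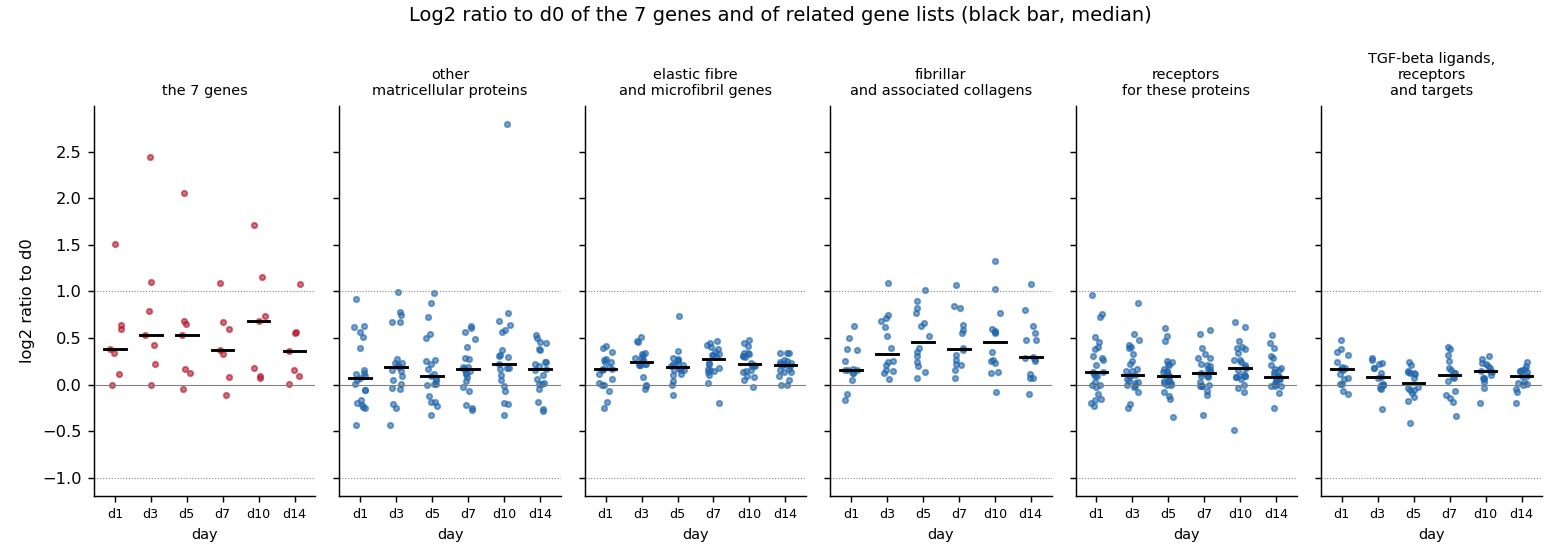
Log2 ratio to d0 (vertical) on each later day for the 7 genes (red) and for 5 lists of related genes that passed the filter (blue), with 1 dot per gene, a black bar for the median and dotted lines at 2-fold. The highest blue dot is Ibsp on d10 (2.80), and the collagen medians reach 0.46 on d5.

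Marker levels of cells that could carry these RNAs are given beside the members. Of the 12 fibroblast markers, 11 were on the array, and their summed intensity lay between 9382.7 on d1 and 9839.6 on d5. The median ratio of the 10 that passed the filter lay between -0.01 and 0.13. Single markers went both ways, with 5 of the 10 above d0 on d1 and 7 on d5 (background 70.9% and 61.1%). Gsn, 2846.2 of the sum on d0, had ratios between -0.35 and -0.13. Those of Mfap5 lay between 0.34 and 0.73 and those of Thy1 between 0.23 and 0.47. Tendon markers (10 of 10 on the array) summed to 11042.2 on d0, 9718.2 on d1, 11099.6 on d3, 12174.1 on d5, 12548.2 on d7, 13656.7 on d10 and 13491.5 on d14, so their sum was lowest on d1 and near d0 on d3. On d1 7 of the 10 were below d0 and 3 above it (background 70.9%), namely Scx (0.64), Egr1 (0.35) and Prg4 (0.29). Macrophage markers (14 of 14) summed to 4704.6 on d0, 6895.4 on d1, 6751.6 on d3, 5894.5 on d5, 4532.7 on d7, 5653.3 on d10 and 4213.7 on d14. The sum was highest on d1 and lay below d0 on d7 and d14. Cd68, a macrophage glycoprotein gene, accounted for 326.5 of the sum on d0, 1345.5 on d1 and 1068.2 on d3. The median ratio of the 12 macrophage markers that passed the filter was nearly the same on d1 (0.359) and d3 (0.361). Of these 12, 12 were above d0 on d3, 5 on d7 and 4 on d14 (background 65.5%, 66.0% and 71.3%). Single macrophage markers differed in course. Cd68 had its highest ratio on d1 (2.04), and C1qb and C1qc had theirs on d3 (0.50 and 0.88). C1qb lay below d0 on d7 and d14, whereas the ratios of C1qc lay between 0.30 and 0.88 on all 6 days. The part of fibroblasts, tendon cells and macrophages in the member values was not tested.

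For the 3 genes whose log2 intensity spanned at least 1 over the arrays, the most similar courses were sought among 11434 named genes, as the root mean square difference of log2 intensity centred per gene over the 7 arrays. This difference is not scaled by the size of a course, so it grows with a gene's span, which was 2.45 for Postn, 1.11 for Tnc and 1.16 for Fn1, and it is not compared between these genes. Nearest to Tnc were the complement gene C4b (0.05), the Fc receptor chain gene Fcer1g (0.11), the complement gene C1qc (0.12) and the slow troponin gene Tnnt1 (0.14). C1qc is also one of the macrophage markers listed above. C4b had intensities of 109.4, 171.3, 215.2, 164.9, 130.8, 169.7 and 142.5 from d0 to d14. Nearest to Postn were the calcium store gene Casq2 (0.35), the metalloprotease inhibitor gene Timp1 (0.39), the extracellular chaperone gene Clu (0.40) and the transferrin receptor gene Tfrc (0.42). Unlike Postn, Casq2 had the same value on d7 and d10 (452), and Clu and Tfrc were lower on d10 than on d7. Timp1 was 259.5 on d7 and 270.4 on d10, with its maximum on d1 (307.3). Nearest to Fn1 were the pentraxin gene Ptx4 (0.14), the signalling adaptor gene Dapp1 (0.14), the interferon-induced gene Ifi27l2a (0.15) and the calponin gene Cnn2 (0.15), all with their maximum on d10. All arrays are shared by these courses, and no significance is attached to the likeness.

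**Figure D5:**
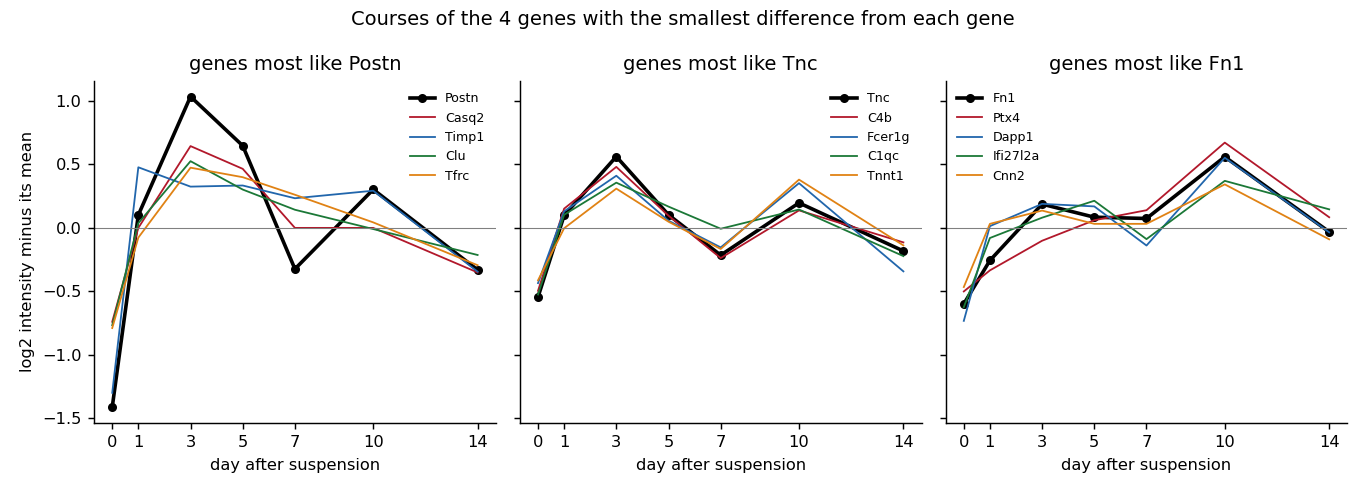
Log2 intensity minus its mean over the 7 arrays (vertical) against day (horizontal) for Postn, Tnc and Fn1 (black) and the 4 genes most like each (coloured). The coloured lines differ by 0.05 to 0.14 from Tnc, whose span is 1.11, and by 0.35 to 0.42 from Postn, whose span is 2.45.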

How the data were processed

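Each array carried RNA pooled from 6 animals, labelled with biotin. The authors deposited 1 linear intensity per transcript cluster and array, already normalized. The submitters' processing notes name Partek with no step, and how background, normalization and annotation build were handled is not given in the sources used here. Of 35556 rows, 23410 were in the platform annotation and 21789 had a single symbol, for 19938 genes. Log2 was taken without adding a pseudocount, and genes reaching an array's median at least once (12102) were kept. Ratios of each later day to d0 carry no test. Genes at least 2-fold higher or lower were tallied. The trend over time is the two-sided moderated test of limma 3.58.1 (R 4.3.3), with an intensity trend in eBayes and Benjamini-Hochberg adjustment over all kept genes. The fit was tested on simulated data. Other steps ran in Python 3.11.15 with pandas 2.3.3, numpy 2.4.6 and scipy 1.17.1, and plots in matplotlib 3.10.9.

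The members and lists were chosen with earlier results of these data known. The naming rule took all 7 members and up to 4 genes of each of 5 related lists. It also took up to 3 genes of each of 10 marker lists, of which only some are printed here. List genes were those with the largest absolute ratios on the day the list's median lay farthest from 0. The 4 genes most like each member that spanned at least 1 on the log2 scale were named as well. Of the marker lists, endothelial and smooth muscle and pericyte markers had medians of at most 0.25 and 0.18, and those of 3 cartilage genes lay between -0.18 and 0.40. All 10 endothelial markers were above d0 on d3, d7, d10 and d14, against 65.5%, 66.0%, 72.2% and 71.3% of all kept genes. The part of endothelial cells in the member values was not tested. Alternatives were other scalings, filters, thresholds, pseudocounts, references, time scales and each array left out.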

Additional observations from a re-analysis of the deposited data

How the results depend on the processing

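The counts and medians of the 7 genes depended on the reference and the threshold, and the 36 counts under quantile normalization, equal array medians and a pseudocount of 16 stayed the same. The mean of a gene's rows and the absence of a filter could not alter a member, since each has 1 row and all 7 passed. A median was taken to have moved when it shifted by more than the robust SD of that pair of arrays. At 1.5-fold 3 genes were higher on d1, d3, d5 and d7 and 4 on d10. At 3-fold 0 were higher on d1, d7 and d14 and 1 on d3 and d10. Against d14, 1 was 2-fold higher on d3 and 0 on d1, d5, d7 and d10, with medians of 0.0255, 0.218, 0.0356, 0.0070 and 0.131 on d1, d3, d5, d7 and d10. Against the mean of the 6 other arrays, 1 was higher on d3 and 0 on the other 5 days, with medians of 0.0119, 0.215, 0.0758, -0.122, 0.227 and -0.0616 from d1 to d14, and Postn reversed to -0.38 on d7 and -0.39 on d14. The sign was opposite to that against d0 for 15 of 42 member ratios there, in 6 of the 7 genes, among them Fn1 (-0.30 on d1), Tnc (-0.25 on d7 and -0.22 on d14) and Sparc (-0.10 on d1), and for 7 of 35 against d14. Against d14 the elastic fibre median on d7 was 0.0727 and the collagen median on d5 was 0.0561. For the trend, 0 members were called in any of the 14 alternatives, with each array left out in turn, other time scales, filters, scalings and a constant variance prior among them. Leaving out 1 array at a time gave slopes of -0.214 (without d0) to 0.380 for Postn, -0.124 (without d0) to 0.132 for Tnc, -0.168 (without d0) to 0.0249 (without d1) for Thbs1, -0.0126 (without d10) to 0.0092 for Thbs2 and -0.0093 (without d0) to 0.0512 for Eln, each changing sign. Those of Sparc (0.074 to 0.177) and Fn1 (0.133 to 0.283) kept theirs. Thbs2 was also reversed under quantile normalization (-0.0019). The cause was not tested. Eln did not pass the filter at percentile 75 and has no slope there. Detection above background is unknown, since scanner files were not used.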

Other observations

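Genes outside the naming rule that were chosen after their values were seen add to the early course. Ccn1, a matricellular protein of the CCN family, stood at 0.92 on d1, 0.23 on d3 and between -0.12 and 0.01 from d5 to d14, and like Thbs1 it was highest on d1. Its relative Ccn2 (connective tissue growth factor) lay between -0.18 and 0.28 on all 6 days. Fstl1, a secreted relative of Sparc, stood at 0.40, 0.67, 0.73, 0.49, 0.57 and 0.44 from d1 to d14, while Sparcl1, the closest relative of Sparc, lay between -0.17 and 0.22. Thbs4, a thrombospondin of muscle and tendon, was 0.51 on d1 and lay between 0.50 and 0.68 later, unlike Thbs2. Decorin (Dcn) lay between -0.23 and -0.19 on all 6 days, below d0 throughout, while the related Bgn lay above it. All of these ratios share the d0 array.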
